A study of Mus musculus with 8 samples.

Results

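The genes described here make cholesterol and fatty acids or control and handle them. They are 33 genes, found on the arrays as every non-control probe named for one of them, with older names accepted, among 28599 gene names in all. All 33 were on the array, through 63 probes, and 13 of them had a single probe. Nceh1 carried its older name Aadacl1 there. Of the 63 probes, 55 were well above background often enough to be tested, and 32 genes were tested, among 14848 tested genes. The exception was Acaca. Its representative probe was well above background with control siRNA on 2 arrays of each fraction, too few to be tested, and with Eif4g3 siRNA on none.

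The cells were cultured lymph node stromal cells (LNSCs), scaffold cells of the lymph node, of BALB/c mice. They were transfected with siRNA against Eif4g3, the gene of eIF4G3, a scaffold in the cap-binding complex that starts translation, or with a control siRNA, both at 400 pmol by lipofection, and harvested at 48 h. The labels give 7 plates for each siRNA, with cells pooled before a sucrose gradient separated the heavy polysomes, the ribosome-rich fractions. Each array compared Eif4g3 siRNA RNA in Cy5 with control siRNA RNA in Cy3, on 4 arrays of total RNA from whole lysate and 4 of heavy polysome RNA. Dyes were never swapped, so a change of an RNA within 1 fraction and a dye bias of its probe cannot be told apart. The labels do not say that replicates came from separate cultures, so p-values measure only the spread between these arrays, which may be technical. In RNA of a cell population, fewer cells of one type and less RNA per cell cannot be told apart.

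Cells build cholesterol from acetyl-CoA through the mevalonate pathway, whose product farnesyl diphosphate enters the sterol steps at squalene. Fatty acids start from the same acetyl-CoA, which Acly releases from citrate, and are then elongated and desaturated. SREBP transcription factors, encoded by Srebf1 and Srebf2, raise the genes of both branches when sterol is scarce, and INSIG proteins hold the SREBPs in the endoplasmic reticulum when sterol is plentiful. Cholesterol taken up in lipoproteins or stored as ester is released by a further set of proteins, among them Npc1, Npc2 and Nceh1.

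The promoters of Nceh1, Acly, Srebf1 and Vldlr, 4 of the 5 genes that passed the test, are shown because the results turn on them. That of Npc1 is not shown. Hmgcs1 is added as the gene that holds a sterol regulatory element in the letters searched. RefSeq promoters of GRCm38.p6 matched 25 of the 33 genes, and the 250 bases before the farthest upstream start were read. Capitals mark CCAAT (the NF-Y box) and TCACNCCAC (a sterol regulatory element), each searched on both strands, so that CCAAT can appear as ATTGG. Each promoter is written 5′ to 3′ on the strand of its gene.
Nceh1, chr3:27182754-27183003, plus strand: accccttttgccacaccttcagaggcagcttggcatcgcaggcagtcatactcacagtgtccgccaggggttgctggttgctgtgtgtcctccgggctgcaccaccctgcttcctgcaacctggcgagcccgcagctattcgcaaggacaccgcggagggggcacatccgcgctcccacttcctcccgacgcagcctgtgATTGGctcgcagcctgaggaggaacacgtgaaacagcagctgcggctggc
Acly, chr11:100528001-100528250, minus strand: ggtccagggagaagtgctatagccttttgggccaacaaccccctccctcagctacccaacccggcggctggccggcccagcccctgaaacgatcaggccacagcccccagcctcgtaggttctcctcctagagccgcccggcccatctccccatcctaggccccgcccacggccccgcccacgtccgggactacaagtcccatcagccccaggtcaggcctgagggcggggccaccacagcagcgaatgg
Srebf1, chr11:60222582-60222831, minus strand: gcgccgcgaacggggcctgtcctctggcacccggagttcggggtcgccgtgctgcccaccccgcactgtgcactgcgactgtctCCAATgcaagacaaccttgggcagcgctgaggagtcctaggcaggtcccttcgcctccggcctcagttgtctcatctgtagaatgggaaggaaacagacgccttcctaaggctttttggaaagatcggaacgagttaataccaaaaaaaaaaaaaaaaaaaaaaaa
Vldlr, chr19:27216234-27216483, plus strand: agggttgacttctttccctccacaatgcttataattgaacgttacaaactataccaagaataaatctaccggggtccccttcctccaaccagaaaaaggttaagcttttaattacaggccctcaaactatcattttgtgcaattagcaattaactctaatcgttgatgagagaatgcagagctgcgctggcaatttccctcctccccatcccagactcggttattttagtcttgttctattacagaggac
Hmgcs1, chr13:119690101-119690350, plus strand: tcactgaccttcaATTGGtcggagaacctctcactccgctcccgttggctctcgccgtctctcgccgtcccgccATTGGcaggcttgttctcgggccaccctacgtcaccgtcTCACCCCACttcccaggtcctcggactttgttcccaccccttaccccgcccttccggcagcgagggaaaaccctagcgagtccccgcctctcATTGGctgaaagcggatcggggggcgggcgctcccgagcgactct

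A CCAAT was present in 18 of the 25 promoters (72%), against 34.5% of 27025 genes with a promoter of the same length. It was found in 5 of 6 mevalonate genes, 7 of 8 sterol genes, 1 of 5 fatty acid genes (Fasn), all 3 regulators and 2 of 3 handling genes. Mvk held the most, with 5, and Hmgcs1 held 3. GGGCGG, the Sp1 box, was present in 18 of 25 (72%), against 33% of all genes, and Acly held 4. TCACNCCAC was present in Hmgcs1 alone of the 25 (4%), against 1.03% of all genes. Among the printed promoters of genes that passed the test, Nceh1 and Srebf1 each held 1 CCAAT, and none was found in the windows of Acly and Vldlr. These are matches of letters in a window, not measured binding sites. The 27025 genes were taken whether or not they were above background on these arrays. No share among the tested genes was computed, so the higher shares cannot be called particular to this set.

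Eif4g3 itself was lower on all 8 arrays, with means of -2.07 (total RNA, range -2.48 to -1.81) and -2.46 (heavy polysomes, -3.16 to -2.0) as a log2 ratio of Eif4g3 siRNA over control siRNA, the scale of all values below unless stated. Arrays were compared with the rest of their fraction by their mean correlation across genes. The lowest values were 0.288 for array 1 and 0.317 for array 3 of the heavy polysomes and 0.326 for array 4 of total RNA. The arrays lay on 5 slides, each with 1 fraction only. A difference between fractions and one between slides therefore cannot be told apart. Markers of fibroblastic reticular stroma were well above background in control RNA on all 8 arrays for 8 of 9 genes. No marker of endothelium (of 5), lymphocytes (of 4), adipocytes (of 6) or epithelium (of 4) was above background on all of them. Of 8 macrophage markers, 5 were, whereas Adgre1 and Tyrobp were on no array in either channel. Krt18 (epithelium), Plin1 and Cidec (adipocytes) were above background in control RNA on all 4 total RNA arrays and on 3 heavy polysome arrays. On no array in either channel were 2 endothelium, 2 lymphocyte, 2 adipocyte and 1 epithelium markers. These counts do not show that such cells were absent.

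In total RNA, 2 of the 32 genes fell and none rose. The 2 were Nceh1, which hydrolyses cholesterol ester, and Acly, which supplies cytosolic acetyl-CoA. That is 6.25% of the genes lower, where 2.67% of all tested genes were lower and 1.67% higher, by limma with Benjamini-Hochberg adjustment at 0.05. In heavy polysome RNA 5 genes fell and none rose. These were Nceh1 and Acly again, Srebf1, the cholesterol exporter of late endosomes Npc1, and the lipoprotein receptor Vldlr. They make up 15.6% of the 32, where 3.99% of all tested genes were lower and 4.83% higher. Of the 5, 3 were cholesterol handling genes, and none of the 17 mevalonate and sterol genes passed. The genes were chosen with earlier results of these data known, so these shares are not an independent test of the set.

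**Figure D1:**
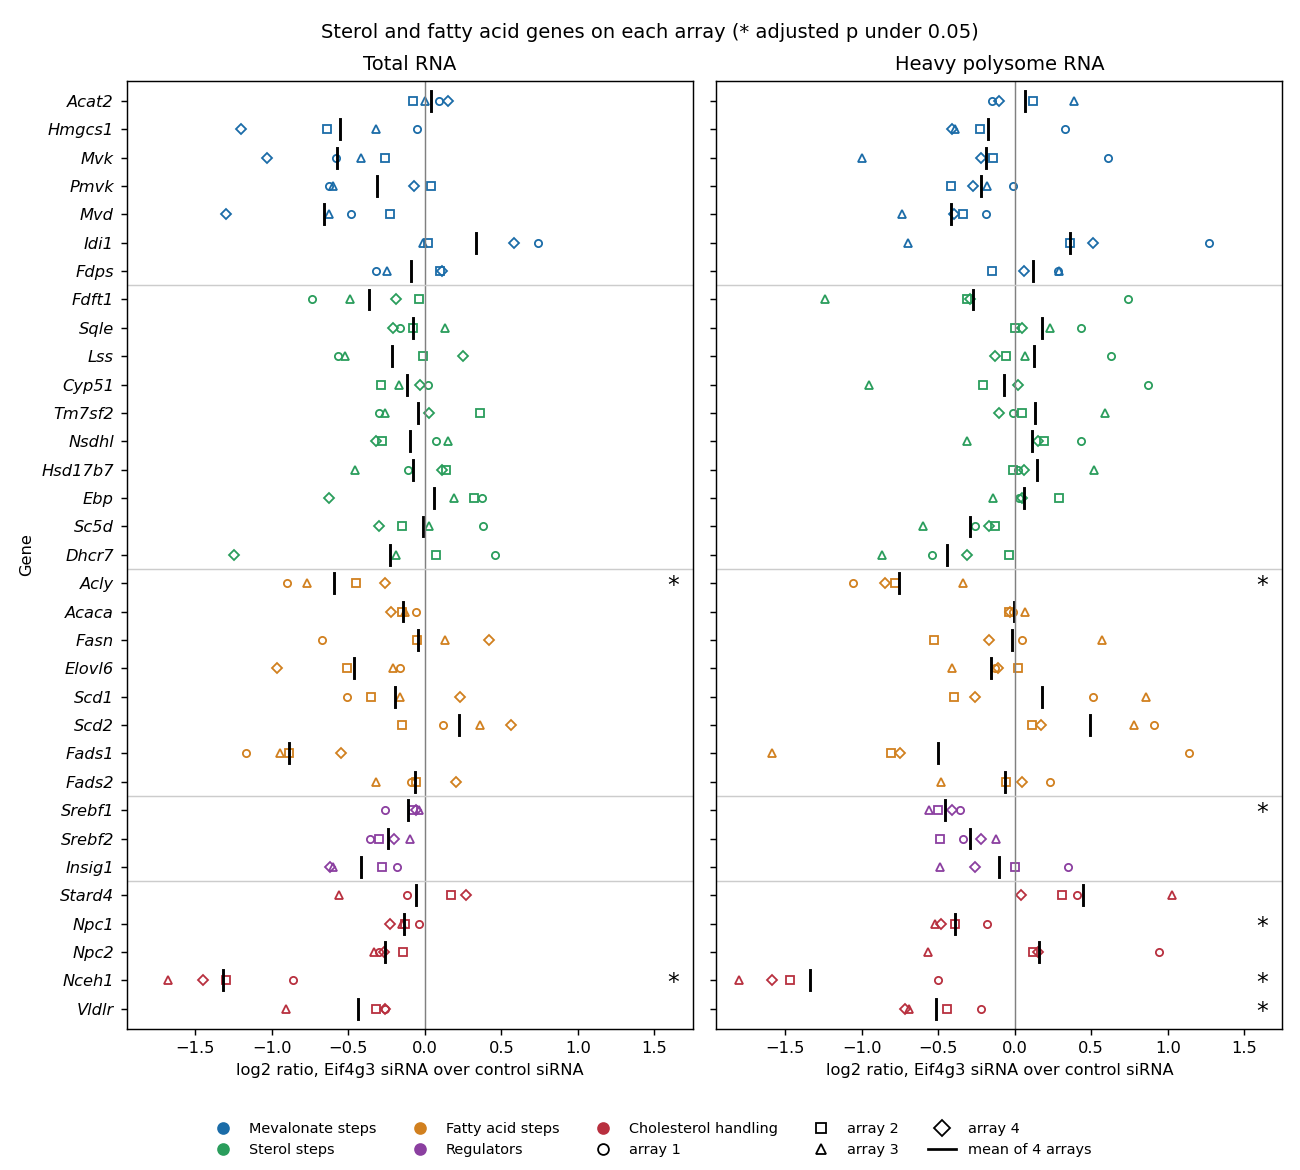
Log2 ratio of Eif4g3 siRNA over control siRNA (x axis) of each of the 33 genes (y axis) on each array, with total RNA on the left and heavy polysome RNA on the right; colours give the role, symbols the array, bars the mean of 4 arrays and stars an adjusted p under 0.05. Nceh1 lies farthest to the left in both panels, between -1.68 and -0.86 on the left and between -1.80 and -0.50 on the right.

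The median over the 32 genes in total RNA was -0.17, against -0.04 over all tested genes, and 28 of the 32 lay below 0, against 58.1% of all genes. In heavy polysome RNA the median was -0.08, against 0.02 over all genes, and 19 of the 32 lay below 0. Centring each array on its median without loess moved the median of all genes in total RNA to -0.77. The genes' median was then -1.05, which is 0.28 below all genes, and no gene of the array passed the test in either fraction.

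Nceh1 encodes neutral cholesterol ester hydrolase, which frees cholesterol from its stored ester. Its 1 probe lies at chr3:27435860-27435919 (mm8). In total RNA it measured -0.86, -1.30, -1.68 and -1.45 on arrays 1 to 4, and in heavy polysome RNA -0.50, -1.47, -1.80 and -1.59. It was lower on all 8 arrays, least on heavy polysome array 1. The mean in total RNA was -1.32 ± 0.35 (SD, n = 4), a 2.50-fold decrease with a limma adjusted p = 0.0125. In heavy polysome RNA the mean was -1.34 ± 0.58 (SD, n = 4), a 2.53-fold decrease with a limma adjusted p = 0.00606. The total RNA call ended when array 2 was left out (-1.33, adjusted p = 0.0553) or array 3 (-1.20, 0.0704).

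Macrophages express Nceh1 strongly, and macrophage markers were lower in part. Of 8 markers 6 were tested, with a median of -0.30 in total RNA, where Csf1r fell (-0.57, adjusted p = 0.0447), and -0.40 in heavy polysome RNA, where Trem2 fell (-1.39, adjusted p = 0.0166). Trem2 was lowest on array 3 of each fraction, at -1.71 and -2.34, as Nceh1 was, and so was Lyz2 (-0.46 and -0.35). Csf1r (-0.94), Cd14 (-1.14) and Cd68 (-0.33) were instead lowest on array 4 of total RNA. Among the heavy polysomes Cd68 (-1.24) and Csf1r (-0.64) were lowest on array 3 and Cd14 (-0.72) on array 1. Fcer1g lay between -0.10 and 0.16 on all 8 arrays. Array by array, the median of the 8 markers ran from -0.22 to -0.08 (total RNA) and from -0.50 to -0.07 (heavy polysomes). Markers of fibroblastic reticular stroma were lower in part as well. All 9 were tested, with a median of -0.34 in total RNA, where Col1a2 fell (-0.46, adjusted p = 0.0491). Their median was -0.42 among the heavy polysomes, where Pdgfra (-0.65), Pdgfrb (-0.47), Col1a1 (-0.67) and Col1a2 (-0.42) fell and Cxcl12 rose (0.78), with adjusted p from 0.0108 to 0.0462. The part of macrophage or stromal RNA in the Nceh1 result was not tested.

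The other handling genes had smaller values. Vldlr, an LDL receptor family member that binds triglyceride-rich lipoprotein, measured -0.22, -0.44, -0.69 and -0.72 in heavy polysome RNA. The mean was -0.52 ± 0.24 (SD, n = 4; adjusted p = 0.0401). In total RNA it measured -0.26, -0.32, -0.91 and -0.26 and did not pass (-0.44 ± 0.31, adjusted p = 0.0890). Its second probe gave -0.43 ± 0.08 and -0.52 ± 0.33, close to the first (-0.44 and -0.52). The probe used lies at chr19:27316649-27316708 (mm8). This call ended when array 1 or 2 of total RNA was left out (adjusted p = 0.0509 and 0.0678), when array 2, 3 or 4 of the heavy polysomes was (0.103, 0.104 and 0.167), and with no filter on dim probes (0.0601).

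Npc1, which moves cholesterol out of late endosomes, measured -0.18, -0.39, -0.52 and -0.48 in heavy polysome RNA (-0.39 ± 0.15, SD, n = 4; adjusted p = 0.0234). All 4 values were below 0. In total RNA it measured -0.04, -0.13, -0.15 and -0.23 (-0.14 ± 0.08, adjusted p = 0.390), so that 1 heavy polysome array overlapped the total RNA arrays. It no longer passed when array 2, 3 or 4 of the heavy polysomes was left out (adjusted p = 0.0861, 0.0560 and 0.112), or when both channels had to be well above background on all 8 arrays (0.0533). Its partner Npc2, which binds cholesterol in the lumen, measured 0.94, 0.12, -0.57 and 0.15 in heavy polysome RNA and spanned 0. The sterol transfer protein gene Stard4 was above 0 on all 4 heavy polysome arrays (0.41, 0.31, 1.03 and 0.04) and on both sides of 0 in total RNA, without passing in either (adjusted p = 0.142 and 0.876).

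Acly was the 1 fatty acid gene that passed. Total RNA gave -0.90, -0.45, -0.77 and -0.26 (-0.60 ± 0.30, SD, n = 4; adjusted p = 0.0461), a 1.51-fold decrease. Heavy polysome RNA gave -1.06, -0.78, -0.34 and -0.85 (-0.76 ± 0.31, SD, n = 4; adjusted p = 0.0125), a 1.69-fold decrease. All 8 values were below 0 and the fractions overlapped. Its probe lies at chr11:100293293-100293351 (mm8). With 3 of the 4 total RNA arrays it did not pass there, whichever was left out (adjusted p = 0.0585, 0.111, 0.156 and 0.171), nor with array 2 or 4 of the heavy polysomes left out (0.0797 and 0.0793), no filter on dim probes (0.0732) or total RNA arrays alone in the fit (0.0528). In the heavy polysomes it did not pass when array 4 was left out (0.0647).

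The other fatty acid genes did not pass. Fasn, the synthase itself, had means of -0.04 and -0.02, with arrays from -0.67 to 0.57. Elovl6, which lengthens palmitate, was below 0 on all 4 total RNA arrays (-0.16, -0.51, -0.21 and -0.97; adjusted p = 0.0858). Of the stearoyl-CoA desaturase genes, Scd2 was above 0 on all heavy polysome arrays (0.91, 0.11, 0.78 and 0.17; 0.49 on average, adjusted p = 0.0926). Scd1 lay on both sides of 0 in each fraction, from -0.51 to 0.86. For Acaca, which makes malonyl-CoA, another probe carried the gene's name on 1 array only. It was well above background in both channels on all 8 arrays, with a mean log2 signal of 7.36. This probe measured -0.22 ± 0.29 (total RNA) and -0.15 ± 0.22 (heavy polysome RNA; SD, n = 4).

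Fads1, the delta-5 desaturase gene, was singled out after its values were seen. It measured -1.17, -0.89, -0.95 and -0.55 in total RNA, a mean of -0.89 that did not pass (adjusted p = 0.162). On the heavy polysome side 3 arrays were low (-0.81, -1.59 and -0.75) and array 1 was high (1.14). Without heavy polysome array 1, which correlated least with the others, Fads1 passed by limma in total RNA (-0.89, adjusted p = 0.0126) and among the heavy polysomes (-1.05, 0.0118). That array held its 1 high value, so leaving it out is not a separate test of the gene. Of 20 alternatives, Fads1 passed in 3 in total RNA and in 2 among the heavy polysomes. Its neighbour in the pathway Fads2, the delta-6 desaturase gene, had means of -0.07 and -0.06.

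Among the regulators, Srebf1 fell in heavy polysome RNA. It did not pass in total RNA, and the difference between the fractions did not pass either. The heavy polysome values were -0.36, -0.50, -0.56 and -0.41 (-0.46 ± 0.09, SD, n = 4; adjusted p = 0.0111), a 1.37-fold decrease. In total RNA it measured -0.26, -0.08, -0.04 and -0.06 (-0.11 ± 0.10, SD, n = 4; adjusted p = 0.472). The 4 heavy polysome arrays all lay below the 4 total RNA arrays, an order that held for 1.21% of all tested genes. Heavy polysome minus total RNA was -0.34 (95% confidence interval -0.60 to -0.09, unadjusted p = 0.0142, adjusted p = 0.846). The decrease no longer passed when array 2 or 4 of the heavy polysomes was left out (adjusted p = 0.0533 and 0.0544). The probe lies at chr11:60015907-60015966 (mm8).

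The heavy polysome calls of Acly, Srebf1, Npc1 and Vldlr also ended when the fit held only the heavy polysome arrays (adjusted p = 0.0505, 0.0617, 0.0961 and 0.0774) or averaged arrays 2 and 4 as 1 replicate (0.0564, 0.0532, 0.0961 and 0.128). Nceh1 passed under both. Among the heavy polysomes, arrays 2 and 4 had the highest mean correlation with the rest of their fraction (0.524 and 0.565). The labels do not say whether these 2 arrays came from separate cultures. The averaging also ended the total RNA call of Acly (0.0779).

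Srebf2, whose product mainly drives the cholesterol branch, measured -0.36, -0.30, -0.10 and -0.20 in total RNA. Its heavy polysome values were -0.34, -0.49, -0.12 and -0.22. All 8 values were below 0, and neither mean passed (-0.24, adjusted p = 0.159, and -0.29, adjusted p = 0.0784). Its 4 probes disagreed. One probe measured 0.45 ± 0.04 in heavy polysome RNA (adjusted p = 0.0134 with each probe tested on its own), against -0.29 ± 0.16 for the brightest probe. Averaged over all its tested probes, Srebf2 was at -0.08 (total RNA, adjusted p = 0.498) and 0.00 (heavy polysome RNA, adjusted p = 0.983). Insig1, an SREBP target that also restrains the SREBPs, was below 0 on all total RNA arrays (-0.18, -0.28, -0.60 and -0.62; -0.42 ± 0.22, adjusted p = 0.114). Its heavy polysome values were 0.35, 0.00, -0.49 and -0.26 (-0.10 ± 0.36, adjusted p = 0.700), and this mean turned to 0.07 in the deposited ratios.

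No mevalonate gene passed. In total RNA the group median was -0.32 and 5 of 7 genes lay below 0. Mvd, which makes isopentenyl diphosphate, was lowest and missed the threshold (-0.48, -0.23, -0.63 and -1.30; -0.66 ± 0.46, SD, n = 4; adjusted p = 0.0502). Of 20 alternatives, Mvd passed in 7, among them slides as a random block (-0.70, adjusted p = 0.0205), and did not pass in 13. Mvk (-0.58, -0.26, -0.42 and -1.03) and Hmgcs1 (-0.05, -0.64, -0.32 and -1.20), the mevalonate kinase and HMG-CoA synthase genes, were also below 0 on all 4 arrays. All 3 were lowest on total RNA array 4, one of the 3 arrays of low correlation. Without those 3 arrays Mvd and Mvk passed in total RNA and Hmgcs1 did not, in a fit where 3221 of all genes passed.

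The mevalonate median in heavy polysome RNA was -0.18, and 4 of 7 genes lay below 0. Mvd stayed below 0 on all 4 arrays (-0.19, -0.34, -0.74 and -0.40; adjusted p = 0.140). Pmvk, the phosphomevalonate kinase gene, measured -0.01, -0.42, -0.18 and -0.27 there (adjusted p = 0.329). Its second probe fell in total RNA when each probe was tested on its own (-0.49 ± 0.14, adjusted p = 0.0273, n = 4), whereas the brighter probe did not pass (-0.32 ± 0.35, adjusted p = 0.194). Acat2 and Fdps, at the first step and at farnesyl diphosphate, had means between -0.09 and 0.12 in both fractions.

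Idi1, the isopentenyl diphosphate isomerase gene, was the highest of the 32 in total RNA (0.74, 0.02, -0.01 and 0.58; adjusted p = 0.500) and measured 1.27, 0.36, -0.70 and 0.51 in heavy polysome RNA (adjusted p = 0.434). Both its probes are placed on chromosome 2 by the array's mm8 annotation, whereas the RefSeq gene record lies on chromosome 13. The dimmer probe gave -0.12 and -0.04. The values of Idi1 are therefore uncertain.

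No sterol gene passed either, and the group stayed nearest to all genes. Its medians were -0.09 (total RNA) and 0.09 (heavy polysome RNA). In total RNA 9 of 10 lay below 0, but 4 of 10 did so in the deposited ratios. Fdft1, the squalene synthase gene, had the lowest mean in total RNA (-0.74, -0.04, -0.49 and -0.19; -0.36 ± 0.31, SD, n = 4; adjusted p = 0.442). Among heavy polysome arrays it measured 0.74, -0.31, -1.24 and -0.29 (-0.28 ± 0.81, adjusted p = 0.541), with arrays 1 and 3 at opposite ends. Sqle, which adds the epoxide to squalene, was at -0.08 and 0.18 (adjusted p = 0.705 and 0.304). Dhcr7, the last reductase of the pathway, was below 0 on all heavy polysome arrays (-0.54, -0.04, -0.87 and -0.31; adjusted p = 0.285).

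The remaining sterol genes, Lss, Cyp51, Tm7sf2, Nsdhl, Hsd17b7, Ebp and Sc5d, had means between -0.21 and 0.06 (total RNA) and between -0.29 and 0.15 (heavy polysome RNA). Several depended on the probe. For Sc5d, a desaturase gene, the brighter probe gave -0.29 ± 0.21 in heavy polysome RNA and the other 0.60 ± 0.31 (adjusted p = 0.185 and 0.0280 with each probe tested on its own). For Lss, the lanosterol synthase gene, 2 probes gave 0.13 and 0.15 and the other -0.66 ± 0.42 (adjusted p = 0.0358 on its own). For Cyp51, the lanosterol demethylase gene, the probes gave -0.07, -0.32 and 0.39. These per-probe tests were added after the data were seen.

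**Figure D2:**
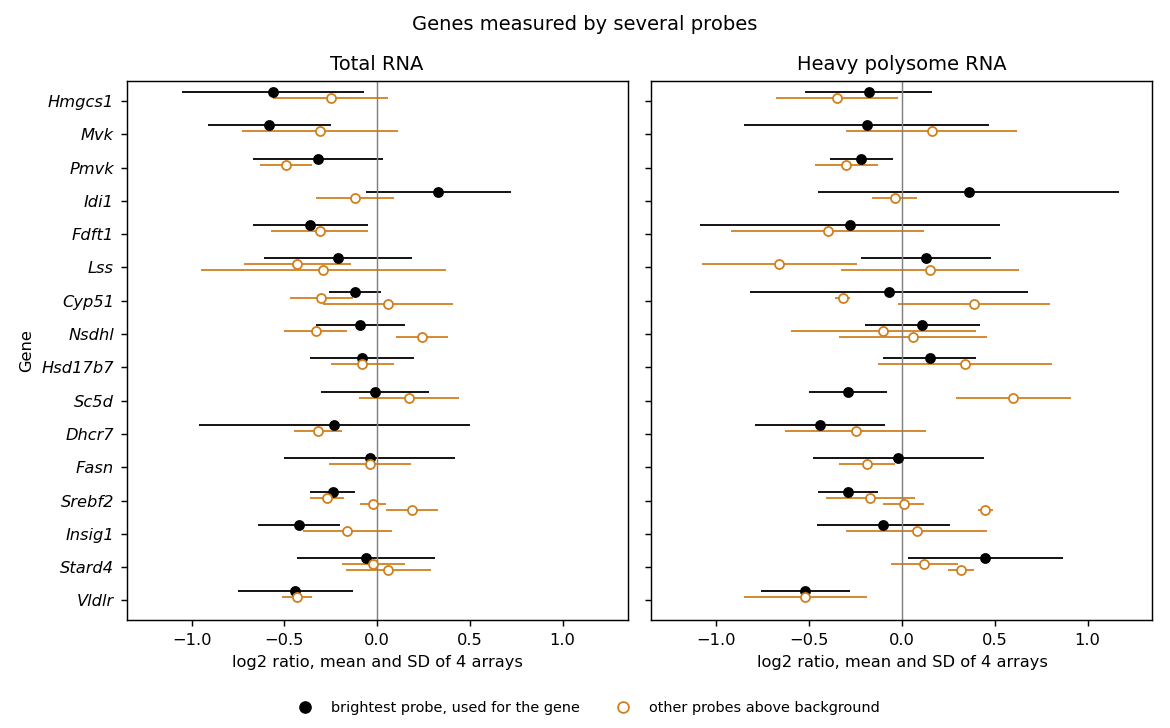
Mean log2 ratio with SD over 4 arrays (x axis) of each probe of the 16 genes (y axis) with several probes that passed the filter, with total RNA on the left and heavy polysome RNA on the right; filled points are the brightest probe, which stands for the gene, and open points the others. The probes of Vldlr coincide, at -0.44 and -0.43 in total RNA, whereas those of Sc5d and Srebf2 lie on opposite sides of 0 in heavy polysome RNA.

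The mevalonate, sterol and fatty acid groups shifted together on heavy polysome arrays 1 and 3. On heavy polysome array 1 the medians of the mevalonate, sterol and fatty acid genes were 0.28, 0.23 and 0.23, and on array 3 they were -0.39, -0.23 and -0.34. The regulators (-0.49 to -0.26) and handling genes (-0.57 to -0.18) were below 0 on all 4 heavy polysome arrays. Over total RNA the mevalonate medians ran from -0.32 to -0.07 and the sterol medians from -0.20 to -0.02. The fatty acid medians ran from -0.51 on array 1 to 0.20 on array 4, where the other groups lay below 0. Without heavy polysome array 1, 6 genes fell in heavy polysome RNA, the same 5 and Fads1, and the median over the 32 was -0.21.

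**Figure D3:**
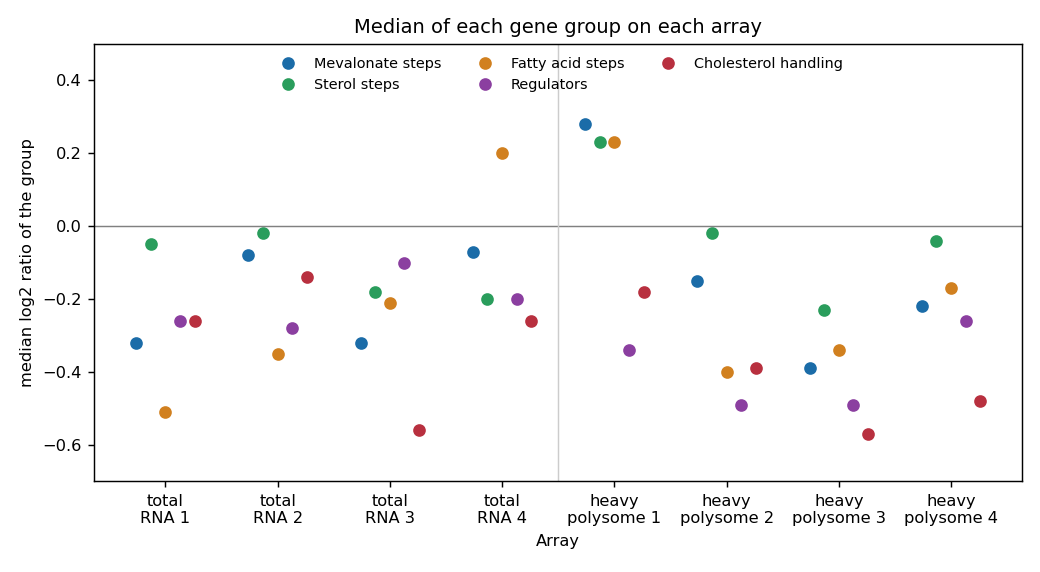
Median log2 ratio of Eif4g3 siRNA over control siRNA (y axis) of each gene group on each of the 8 arrays (x axis), coloured by group. Heavy polysome array 1 is the 1 array where the mevalonate, sterol and fatty acid medians all lie above 0, at 0.28, 0.23 and 0.23.

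To ask whether ribosome loading changed beyond RNA abundance, the ratio in heavy polysome RNA was compared with that in total RNA. None of the 32 genes passed by limma, as none of the 14848 genes did (0% called). At an unadjusted p under 0.05 there was 1 gene of the 32, Srebf1 (3.12%), against 784 of all genes (5.28%). All 7 mevalonate genes had a higher ratio in heavy polysome than in total RNA, by 0.02 to 0.39 with a median of 0.21. Of all tested genes 62.3% lay above 0, with a median of 0.06, and the 7 include Idi1, whose values are uncertain. Without heavy polysome array 1 the mevalonate median was 0.12 with 6 of 7 above 0, and the median over the 32 moved from 0.13 to 0.06, against 0.05 over all genes. The largest was Mvk (0.39, 95% confidence interval -0.30 to 1.08). Stard4 had the highest difference of the 32 (0.51, 95% confidence interval -0.04 to 1.06) and Srebf1 the lowest.

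**Figure D4:**
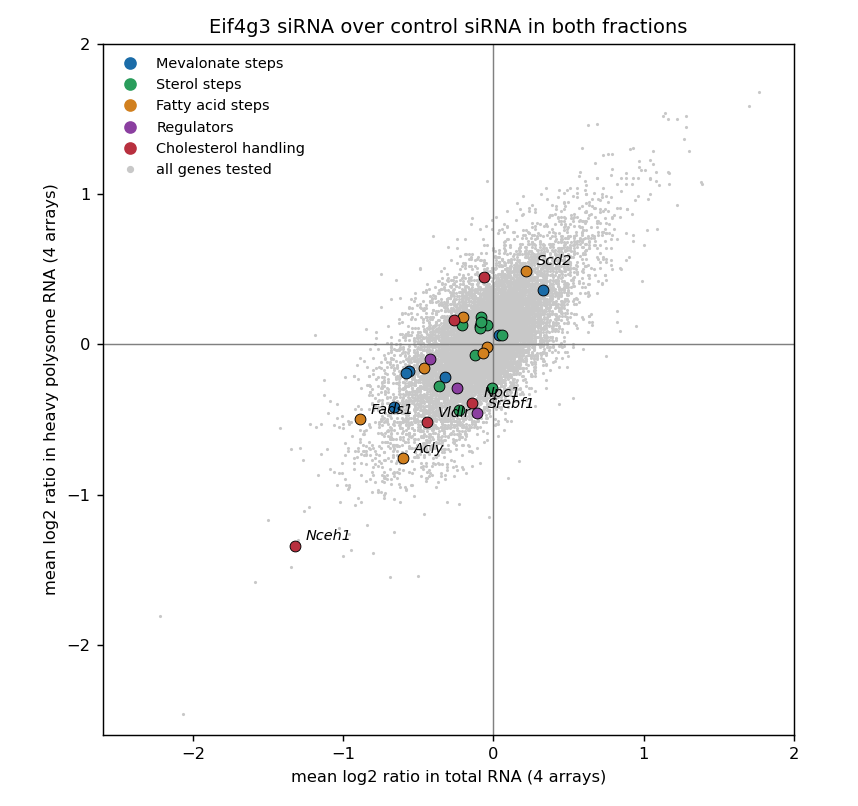
Mean log2 ratio of Eif4g3 siRNA over control siRNA in total RNA (x axis) against heavy polysome RNA (y axis), each over 4 arrays, for all 14848 tested genes in grey and the 32 sterol and fatty acid genes coloured by role. Nceh1 lies at -1.32 and -1.34, Acly at -0.60 and -0.76, and Srebf1 and Npc1 lie near 0 on the x axis and lower on the y axis.

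Within each siRNA, heavy polysome RNA was also set against total RNA from the separate channels. Since equal RNA mass was labelled, a value is relative to the other RNAs of its sample. In control siRNA cells none of the 32 genes passed, where 2.18% of all genes did, with 1 of the 32 (Hsd17b7, 0.71) at an unadjusted p under 0.05 (3.12%, against 12.4% of all genes). The median over the 32 was 0.09 and the values ran from -0.42 for Mvk to 0.71. In Eif4g3 siRNA cells none passed, where 0.182% of all genes did, with 3 of the 32 at an unadjusted p under 0.05 (9.38%, against 12.4% of all genes). Those were Hsd17b7 (0.94), Scd1 (0.82) and Mvd (0.57), with adjusted p = 0.276, 0.317 and 0.396 by limma.

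Npc1 was the 1 of the 32 genes whose Cy5 levels did not overlap between fractions. As log2 signal, total RNA gave 7.58, 7.44, 7.74 and 7.49, and heavy polysome RNA gave 7.43, 7.38, 7.42 and 7.42. The levels were barely apart, with a highest heavy polysome value of 7.43 and a lowest total RNA value of 7.44. Such an order, all heavy polysome values below all total RNA values, held for 5.28% of all tested genes. The opposite order held for 2.77%. A share of 1 in 32 is below the 5.28% of all genes, so it does not set these genes apart. The difference of Npc1 did not pass (-0.15, adjusted p = 0.729).

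A wider list of 70 genes of sterol, fatty acid and lipoprotein metabolism had 65 tested. In total RNA none passed, with a median of -0.10 and 14 at an unadjusted p under 0.05 (21.5%, against 22% of all genes). Of the 65, 3 rose and 3 fell in heavy polysome RNA, with a median of 0.03. Each is 4.62% of the 65, near the 4.83% of all genes that were higher and the 3.99% that were lower. Those that rose were Insig2 (0.76 ± 0.49, adjusted p = 0.0227), a second INSIG gene, Mylip (0.62 ± 0.44, adjusted p = 0.0356), a ubiquitin ligase for lipoprotein receptors, and Mbtps1 (0.54 ± 0.31, adjusted p = 0.0239), the protease that cleaves SREBPs. Among those that fell were the cholesterol exporter Abcg1 (-1.25 ± 0.35, adjusted p = 0.00549) and the mitochondrial acetyl-CoA carboxylase Acacb (-0.95 ± 0.25, adjusted p = 0.00376).

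Abcg1 measured -0.74, -1.38, -1.30 and -1.56 in heavy polysome RNA and 0.01, -0.91, -0.70 and -1.05 in total RNA (adjusted p = 0.0658).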

How the data were processed

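Per the file headers, Agilent Feature Extraction 10.7.3.1 made 7 scanner tables and version 10.5.1.1 that of total RNA array 2, each holding spot intensity for both channels. The deposited tables also give log10 ratios, not used here, and the deposited series matrix gives log2 ratios of Cy5 over Cy3, dye-normalised by the authors' software, used as an alternative.

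Mean signals were corrected with normexp (offset 50) and normalised by loess (span 0.3), and channels by Aquantile, in limma 3.58.1 (R 4.3.3). The brightest probe stood for its gene, but a probe that carried the gene's name on 1 array only, as for Acaca, could not. Genes well above background in 1 channel on at least 3 of 4 arrays of a fraction were tested with limma over all 8 arrays, two-sided, with Benjamini-Hochberg adjustment at 0.05. For each array 200 ng RNA had been labelled. No spot was saturated, and the number of arrays limits precision. The fit was tested on simulated data with independent noise on each array. That simulation held no slide, dye or shared replicate effect, so it does not bear on these.

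The genes named in full are those that passed, the 3 regulators and, for a role where none passed, the gene with the largest change in total RNA. The genes and lists were chosen with earlier results of these data known. One gene of the wider list that passed is counted but not reported here. Alternatives were the background correction, scaling, filter, probe choice, slide or replicate block, and arrays left out.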

Additional observations from a re-analysis of the deposited data

Results flagged for a closer look

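Of 64 sets of 4 arrays checked (32 genes in 2 fractions), 2 held an array far from the other 3, and chance alone gives about 1 in 20. Hsd17b7, a sterol step gene, measured 0.52 on heavy polysome array 3, where the others lay between -0.01 and 0.06. Vldlr measured -0.91 on total RNA array 3, where the others lay between -0.32 and -0.26.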

How the results depend on the processing

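The counts are 2 genes for total RNA and 5 for heavy polysome RNA. Total RNA gave 0 with median centring, 1 with no filter on dim probes, 4 with the mean over all tested probes, 4 with slide as a random block (both times Mvd was added, with Pmvk and Elovl6 respectively), 1 with heavy polysome arrays 2 and 4 averaged, and 11 (1 higher, 10 lower) without the 3 arrays of lowest correlation. Calls over all 14848 tested genes moved as well. From 644 in total RNA they went to 0 with median centring, 305 with those arrays averaged and 1503 with slide as a random block. Without the 3 arrays they numbered 3221, a rise over the whole array. With 1 array left out they ran from 52 to 1358. Heavy polysome RNA gave 7 with the mean over all tested probes (Stard4 higher and Fdft1 lower were added), 7 with slide as a random block (Scd2 higher and Srebf2 lower were added), 0 with median centring, 1 with only its own 4 arrays in the fit and 1 with arrays 2 and 4 averaged. Leaving out 1 array gave 0 to 4 genes for total RNA (0 without its array 2 or 3) and 1 to 6 for the heavy polysomes (1 without their array 4, 2 without array 2). Replicate numbers are shared between fractions, but not every same-numbered pair deviated together: correlations were -0.016, 0.169, -0.110 and -0.297 for the ratios, -0.317, 0.071, 0.439 and 0.110 for Cy3 and 0.030, 0.230, 0.243 and 0.001 for Cy5, and for the ratios number 2 alone correlated best with itself (0.169, against at most 0.093 with another number), so no pairing was used. With the replicate block the counts were 2 and 5, with the same genes, and it changed no other call of these genes. The 3 comparisons with 0 genes gave 0 in every alternative run. In heavy polysome RNA Insig1 turned from -0.10 to 0.07 in the deposited ratios; with 1 array left out it ran from -0.25 to 0.03, and Fdft1 (-0.28) from -0.61 to 0.04, both highest without heavy polysome array 3. No other value of the genes named in full changed sign. The causes were not tested.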
